A study of Homo sapiens with 4 samples.

Results

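Dynactin is represented here by the genes of 10 of its subunits, DCTN1, DCTN2, DCTN3, DCTN4, DCTN5, DCTN6, ACTR1A, ACTR1B, ACTR10 and CAPZA1. They were chosen by gene name from a table of 60671 genes, and each name matched 1 row. The table gives RNA-seq values of 4 libraries of H9, an established human embryonic stem cell line, made from RNA with a poly(A) tail. Of the 4 libraries, 2 came from control H9 cells. The other 2 came from H9 cells whose CFIm25 gene, NUDT21, was edited with CRISPR/Cas9 and that also carried a lentiviral 3Flag-CFIm25, so that the protein was put back. This group is called KO+OE. Both groups were grown in mTeSR medium with no treatment.

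The labels name the edit a knockout in the titles and a knockdown elsewhere, and the study describes lines grown from single clones with a low level of an N-terminally shortened protein. The label of the control group gives the genotype as control and does not say whether those cells had been given an empty vector. Cells with the edit and without re-expression were not analysed here. Nothing in the labels says that the 2 libraries of a group came from separate cultures, so the p-values below measure only the spread between these libraries. Levels below are in TPM, which gives the share of a gene among all transcripts after its reads are divided by its length.

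Dynactin is a large complex that joins the motor cytoplasmic dynein to its cargo and to microtubules, and that dynein needs for long movements toward the minus end. Its body is a short filament of the actin-related protein Arp1. A shoulder of DCTN1, DCTN2 and DCTN3 sits on the filament and reaches out to the microtubule and to dynein, a pointed-end complex of ACTR10, DCTN4, DCTN5 and DCTN6 caps one end and contacts some cargo adaptors, and the capping protein CapZ closes the other, barbed end. In dividing cells dynactin also serves spindle positioning and the transport of checkpoint proteins from kinetochores.

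The study followed DCTN5, which encodes the p25 subunit, with its own RT-qPCR and nuclear run-on primers. Those sequences are shown because they mark which stretches of the gene the study's assays read, whereas a TPM value adds up reads over all exons. DCTN5 lies on the plus strand at chr16:23652787-23688793 (GRCh37, GENCODE release 44), and its canonical transcript has 6 exons and 10954 bases, of which the last exon holds 10426 bases or 95.2%. The RT-qPCR primers lie in the coding parts of exon 2 and exon 3. Their product is 87 bases long on the spliced transcript.
DCTN5-F: cagtcgccagtcagtgttgt
DCTN5-R: tcccctcggataatacagtcatt

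The first run-on pair spans the start of the gene, with the forward primer beginning 51 bases before it (position -51) and the reverse primer in the 5′ UTR of exon 1. The other run-on pairs lie in intron 2, at the junction of intron 4 with exon 5, and in the 3′ UTR of exon 6. The forward primer of the first pair is in capitals in the promoter below, which is the 250 bases before the start in RefSeq, chr16:23641216-23641465 on the plus strand of GRCh38.p14. A search of the DCTN5 region in GRCh37 found the same bases directly before base 23652787, the start of the gene there.
DCTN5 promoter: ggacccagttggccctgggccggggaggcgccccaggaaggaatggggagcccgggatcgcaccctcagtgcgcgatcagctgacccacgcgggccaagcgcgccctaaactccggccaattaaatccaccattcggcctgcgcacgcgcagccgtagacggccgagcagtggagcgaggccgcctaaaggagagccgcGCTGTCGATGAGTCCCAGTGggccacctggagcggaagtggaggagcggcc

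By annotated length, the exons of DCTN5 lie almost wholly in the last one, which the study's RT-qPCR product does not touch. Which exons the reads came from cannot be seen in gene-level values and was not tested. The length by which the submitters divided is not given in the sources used here. It sets the level of DCTN5 relative to the other subunits and cancels in a comparison of the same gene between groups.

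Column sums lay between 986853 and 987078 TPM, and between 12179 and 12332 genes had at least 1 TPM. The mitochondrial share ran from 21.0% to 21.1% in control cells and from 21.6% to 22.1% in KO+OE cells. The values are not counts, and the sequencing depth behind them is unknown. NUDT21, the gene that was edited and re-expressed, had 160.67 and 152.2 TPM in control cells and 162.09 and 156.6 TPM in KO+OE cells (log2 fold change 0.03, limma adjusted p = 0.980). This gene-level sum does not separate the edited transcripts from those of the transgene. The 6 markers of pluripotent stem cells summed to between 3043 and 3074 TPM in the 4 libraries. The 3 mesoderm and 2 ectoderm markers each summed to under 1 TPM in every library, and the 3 endoderm markers, nearly all of it GATA6, to between 4.35 and 8.39 TPM. The 4 fibroblast markers summed to between 67.1 and 68.8 TPM, with overlapping groups. Of these, COL1A1 had 53.86 to 55.6 TPM and COL1A2 had 12.99 to 14.47 TPM. DCN had at most 0.08 TPM, and LUM was listed at 0.

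DCTN5 was the only subunit that passed an unadjusted p of 0.05, and no subunit passed after adjustment. The unadjusted limma call was not kept without the trended prior (0.0588) or with a block for the replicate number (0.0550). With that block DCTN2 passed instead (0.0163). DCTN2 passed as well as DCTN5 with median-ratio rescaling (0.0370) and quantile normalization (0.0273). DCTN5 had 22.69 and 22.03 TPM in control cells and 25.43 and 25.24 TPM in KO+OE cells. Both KO+OE libraries lay above both control libraries, with means of 22.4 ± 0.467 and 25.3 ± 0.134 TPM (SD, n = 2 each). The difference was 0.17 on the scale log2(TPM + 1), with an SE of 0.060 and a 95% confidence interval of 0.02 to 0.33, which is 1.13-fold with an interval of 1.01 to 1.25. Limma gave an unadjusted p of 0.0342 and an adjusted p of 0.928 over the 12319 genes whose 4 values averaged 1 TPM or more. Of these genes, 442, or 3.59%, had an unadjusted p at or under that of DCTN5, and 3099, or 25.2%, had an absolute log2 fold change at or over it. The difference of DCTN5 thus exceeded the spread between its replicates, which was small for this gene, and did not stand out among all genes tested. The 2 libraries of a group differed in DCTN5 by 0.041 in control cells and 0.010 in KO+OE cells on the log2(TPM + 1) scale, against a median over all genes tested of 0.112 and 0.110.

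Taken as a group, the subunits did not move in a common direction. All 10 averaged 1 TPM or more and entered the test. At an adjusted p under 0.05 the count was 0 of 10 subunits, and 1 of 12319 genes, or 0.00812%, passed in the whole table (AC125388.1, named here after its value was seen). At an unadjusted p under 0.05, 1 of 10 was higher in KO+OE cells against 2.26% of all genes, and 0 of 10 were lower against 3.06%. Groups that did not overlap, with both KO+OE libraries on the same side of both control libraries, were seen for 3 higher subunits (DCTN2, DCTN5 and DCTN6) against 14.5% of all genes, and for 2 lower subunits (DCTN1 and ACTR1A) against 19.6%. The log2 fold change was above 0 for 5 subunits and below 0 for 5, of which DCTN4 and ACTR1A moved just above 0 with median-ratio rescaling and quantile normalization. The median log2 fold change was 0.007 over the subunits and -0.012 over all genes tested, and adjusted p-values of the subunits ran from 0.928 to 0.995.

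**Figure D1:**
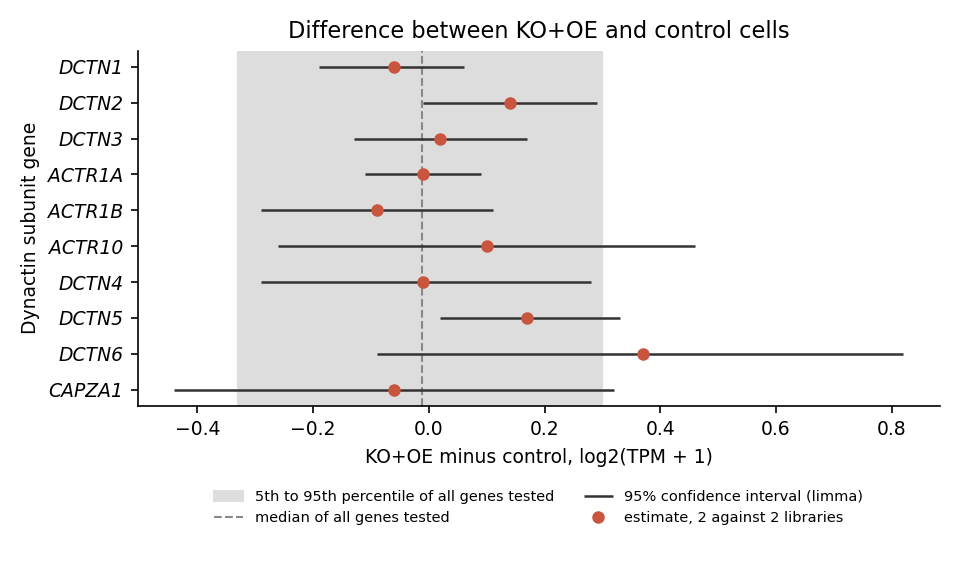
Difference between KO+OE and control cells for the 10 dynactin subunits, in order of their place in the complex, on the log2(TPM + 1) scale. Points are limma estimates of 2 against 2 libraries, lines their 95% confidence intervals, the dashed line the median of all 12319 genes tested (-0.012) and the grey band their 5th to 95th percentile (-0.33 to 0.30). The interval of DCTN5, from 0.02 to 0.33, is the only 1 that does not reach 0, and DCTN6 has the widest, from -0.09 to 0.82.

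Among the shoulder subunits, DCTN2 encodes dynamitin, whose excess takes dynactin apart. DCTN2 had 153 and 143.6 TPM in control cells and 170.1 and 156.77 TPM in KO+OE cells. Both KO+OE values lay above both control values, and the higher control library was 3.77 TPM under the lower KO+OE library. The fold change was 1.10 (95% interval 0.994 to 1.22), with an unadjusted p of 0.0598 and an adjusted p of 0.931. DCTN2 overlaps KIF5A, a neuronal kinesin heavy chain gene on the opposite strand, over 1199 bases. It also overlaps MBD6 on that strand over 516 bases, which had 5.01 to 6.18 TPM. KIF5A had 3.53 and 3.12 TPM in control cells and 12.65 and 4.2 TPM in KO+OE cells. The library with the highest KIF5A value was also the one with the highest DCTN2 value, and without it the log2 fold change of DCTN2 was 0.080 in place of 0.14. Whether reads were counted by strand is not given in the sources used here, and the part of these overlaps in the values was not tested.

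DCTN1 encodes p150Glued, the long arm that binds microtubules and the dynein intermediate chain. It had 70.22 and 72.78 TPM in control cells and 66.71 and 70.14 TPM in KO+OE cells. Both KO+OE libraries were lower, the closer pair by 0.08 TPM, and the fold change was 0.957 (0.877 to 1.05). DCTN3 encodes p24, the small subunit that bridges the shoulder to the rest of the complex. It had 40.15 and 37.86 TPM in control cells and 38.83 and 40.26 TPM in KO+OE cells, so that the groups overlapped, with a fold change of 1.01 (0.914 to 1.12). DCTN1 and DCTN3 had adjusted p-values of 0.948 and 0.990.

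The filament gene ACTR1A varied least of all 10 subunits between libraries. It encodes Arp1 alpha, the main filament protein. It had 85.32 and 85.19 TPM in control cells and 85.07 and 84.75 TPM in KO+OE cells. The highest of the 4 libraries was 1.01 times the lowest. Both KO+OE values were below both control values and the fold change was 0.996 (0.930 to 1.07), with an adjusted p of 0.990, and its log2 value turned to 0.007 and 0.010 with median-ratio rescaling and quantile normalization. ACTR1B encodes the closely related Arp1 beta. It had 22.63 and 22.08 TPM in control cells and 19.89 and 22.15 TPM in KO+OE cells. Only the first KO+OE library lay apart from the other 3, and the fold change was 0.942 (0.821 to 1.08) with an adjusted p of 0.950. ACTR1A lies over MFSD13A, a gene on the opposite strand with 3.27 to 4.26 TPM.

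At the pointed end, where DCTN5 belongs, the other 3 subunits were expressed at a lower level and measured less precisely. DCTN6 encodes p27, the partner of DCTN5 and like it a protein with a left-handed beta-helix fold. It had 1.38 and 1.83 TPM in control cells and 2.55 and 2.15 TPM in KO+OE cells. Both KO+OE libraries lay above both control libraries, as for DCTN5, but the SE of 0.177 on the log2(TPM + 1) scale was about as large as the whole difference of DCTN5. The log2 fold change was 0.37 (95% interval -0.09 to 0.82), with an unadjusted p of 0.0942 and an adjusted p of 0.931. At this low level the value depended on the pseudocount, being 0.531 with a pseudocount of 0.1 and 0.154 with 5, and it was 0.241 without the first control library. DCTN6 shares 20890 bases of its gene body with LEPROTL1 on the same strand, which had 22.0 to 24.2 TPM. This is an overlap of whole genes, and whether exons overlap was not computed. How reads in the shared stretch were assigned is not given in the sources used here.

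DCTN4 encodes p62, a zinc-binding subunit of the pointed-end complex. It had 4.74 and 4.99 TPM in control cells and 4.98 and 4.7 TPM in KO+OE cells, and the groups overlapped almost fully (fold change 0.996, 0.815 to 1.22). ACTR10 encodes Arp11, the actin-related protein that caps the filament. It had 7.44 and 6.58 TPM in control cells and 8.51 and 6.74 TPM in KO+OE cells, where the difference between the 2 KO+OE libraries was larger than that between the group means. Its fold change was 1.07 (0.835 to 1.38). DCTN4 and ACTR10 had adjusted p-values of 0.995 and 0.974. ACTR10 lies inside ARMH4, a gene on the opposite strand with 3.01 to 3.79 TPM.

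At the barbed end, CAPZA1 encodes the alpha 1 subunit of CapZ, which also caps ordinary actin filaments. It had 2.95 and 2.74 TPM in control cells and 2.95 and 2.45 TPM in KO+OE cells. The groups overlapped, and the fold change was 0.960 (0.737 to 1.25) with an adjusted p of 0.988. Its paralog CAPZA2 had 2.2 and 3.71 TPM in control cells and 1.7 and 2.49 TPM in KO+OE cells, again overlapping. The beta subunit gene CAPZB, which pairs with either alpha subunit, had 359.21 and 352.68 TPM in control cells and 351.44 and 346.78 TPM in KO+OE cells. Both KO+OE libraries were below both control libraries for CAPZB, at a fold change of 0.981 (0.931 to 1.03) and an adjusted p of 0.960. CAPZA1 overlaps ST7L, a gene on the opposite strand with 6.46 to 8.5 TPM, over 1021 bases. For 6 subunits (DCTN1, DCTN2, DCTN3, DCTN4, ACTR1A and ACTR1B) the 95% interval of the fold change, taken on TPM + 1, stayed within 0.8 to 1.25. The added 1 narrows the interval of a low gene such as DCTN4, at a mean of 4.85 TPM. For DCTN5, DCTN6, ACTR10 and CAPZA1 it did not.

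The levels of the subunits differed far more from each other than between the groups. The order by mean TPM over the 4 libraries was DCTN2 (156), ACTR1A (85.1), DCTN1 (70.0), DCTN3 (39.3), DCTN5 (23.8), ACTR1B (21.7), ACTR10 (7.32), DCTN4 (4.85), CAPZA1 (2.77) and DCTN6 (1.98). DCTN2 ranked 711 among the 12319 genes tested, DCTN5 ranked 3382, within the top 27.5%, and DCTN6 ranked 10233. Of the 9 pairs of neighbours in this order, 7 had ranges over the 4 libraries that did not overlap. DCTN5 and ACTR1B were not apart: their ratio ran from 0.998 in the second control library to 1.28 in the first KO+OE library, and DCTN5 was the higher in 3 of 4 libraries. CAPZA1 was above DCTN6 in all 4 libraries, by 1.14 to 2.14 times, although their ranges overlapped.

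**Figure D2:**
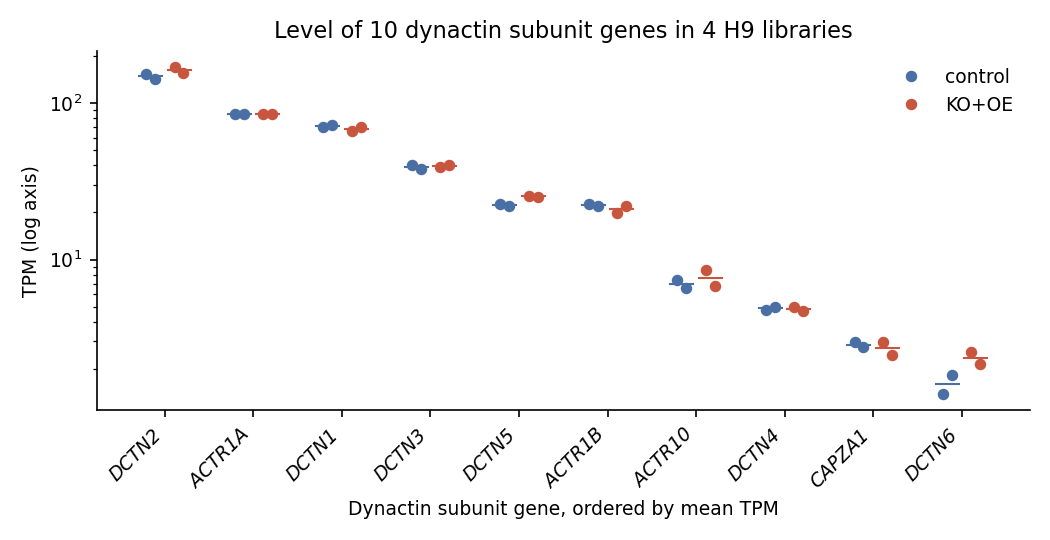
TPM on a log axis of the 10 dynactin subunit genes, ordered by their mean over 4 libraries. Points are libraries (2 of control, 2 of KO+OE cells) and short lines the mean of each group. The levels fall from 156 TPM for DCTN2 to 1.98 TPM for DCTN6, while the highest of the 4 libraries of a gene is 1.01 times the lowest for ACTR1A and 1.85 times for DCTN6. DCTN5 shows its 2 KO+OE points, at 25.43 and 25.24 TPM, above its control points.

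The summed TPM of the 10 subunits was 410.5 and 399.7 in control cells and 425.0 and 415.3 in KO+OE cells. As shares of this sum, the 3 shoulder genes took 64.2% and 63.6% in control cells and 64.9% and 64.3% in KO+OE cells. The 2 filament genes took 26.3% and 26.8% in control cells and 24.7% and 25.7% in KO+OE cells. The 4 pointed-end genes took 8.83% and 8.86% in control cells and 9.76% and 9.35% in KO+OE cells. The groups did not overlap for the shoulder and the pointed end, both higher in KO+OE cells, nor for the filament, which was lower. For the shoulder the closest values were 64.2% and 64.3%. Of its genes only DCTN2 had a higher share, with 37.3% and 35.9% in control cells and 40.0% and 37.7% in KO+OE cells. The share of DCTN1 was lower and that of DCTN3 overlapped. At the pointed end DCTN5 and DCTN6 had higher shares, and DCTN4 and ACTR10 overlapped. These shares depend on each other, since they are parts of the same sum. DCTN5 took 5.53% and 5.51% in control cells and 5.98% and 6.08% in KO+OE cells. Within the pointed-end complex DCTN5 supplied the larger portion of the transcripts in every library, 62.6% and 62.2% in control cells and 61.3% and 65.0% in KO+OE cells, with overlap. These RNA shares do not follow the make-up of the assembled complex, in which the Arp1 filament is built from many copies and the pointed-end subunits are present singly.

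The level of the subunits went with the GC content of their transcripts, though not strictly. ACTR1B had the highest GC content (59.0%) and a mean of 21.7 TPM, under the 23.8 TPM of DCTN5. The 5 subunits with a GC content of 51.5% to 59.0% in the canonical transcript (DCTN1, DCTN2, DCTN3, ACTR1A and ACTR1B) had between 19.9 and 170 TPM in single libraries. The 5 with a GC content of 37.2% to 45.5% (DCTN4, DCTN5, DCTN6, ACTR10 and CAPZA1) had between 1.38 and 25.4 TPM, and DCTN5, with 45.5%, was at the top of both ranges. The Spearman correlation between TPM and GC content over the 10 subunits was 0.697 to 0.758 in the 4 libraries, against 0.264 to 0.277 over 12147 genes tested with a known GC content. These are correlations across genes that share libraries and annotation, given as a description. The part of GC content in the order of the levels was not tested.

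**Figure D3:**
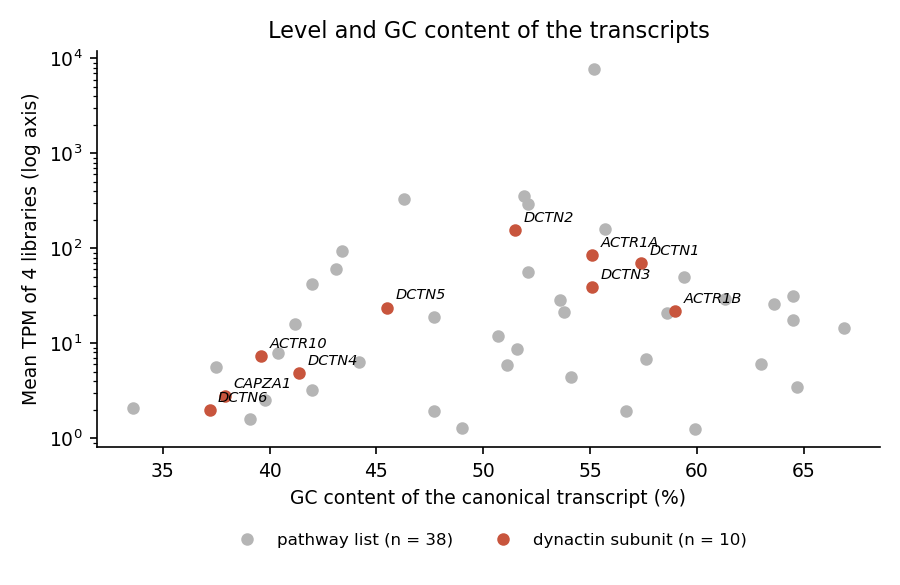
Mean TPM of 4 libraries, on a log axis, against the GC content of the canonical transcript in percent. Red points are the 10 dynactin subunits, grey points the 38 tested genes of dynein and kinesin transport with a known GC content. DCTN6, CAPZA1, ACTR10 and DCTN4 lie at low GC content and low level. DCTN5 lies between them and the 5 subunits above 50% in GC content. In level it lies above ACTR1B, the subunit with the highest GC content.

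Because 1 library can be high or low for all subunits, the subunits were also compared with each other inside each library, as the log2 of a gene's TPM over the geometric mean of the other 9. For DCTN5 this was 0.42 and 0.37 in control cells and 0.47 and 0.55 in KO+OE cells. DCTN5 was thus higher relative to the other subunits in both KO+OE libraries, by 0.12 on average against a pooled SD of 0.044. For DCTN6 it was -4.07 and -3.62 in control cells and -3.22 and -3.40 in KO+OE cells. The mean rise for DCTN6 was 0.54, with a pooled SD of 0.245. It was 0.310 without the first control library and 0.342 with a pseudocount of 1. Of the other subunits, DCTN1, DCTN4, ACTR1A, ACTR1B and CAPZA1 were lower in KO+OE cells without overlap, by 0.09 to 0.19, and DCTN2, DCTN3 and ACTR10 overlapped. On their own TPM, DCTN4, ACTR1B and CAPZA1 overlapped between the groups. Of all genes tested, 14.5% were higher and 19.6% lower without overlap on their own values, and the like share for such ratios was not computed. Over the median of the other 9 in place of their geometric mean, DCTN1 (0.026) and ACTR1A (0.083) were instead higher in KO+OE cells. For both, that median was the lower of ACTR1B and DCTN5 in each library, and ACTR1B had 19.89 TPM in the first KO+OE library. Without the first KO+OE library the value of DCTN1 was -0.072, that of ACTR1A -0.051 and that of ACTR1B -0.056. These values depend on each other, since the high ratio of one gene lowers those of the rest, and carry no test.

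**Figure D4:**
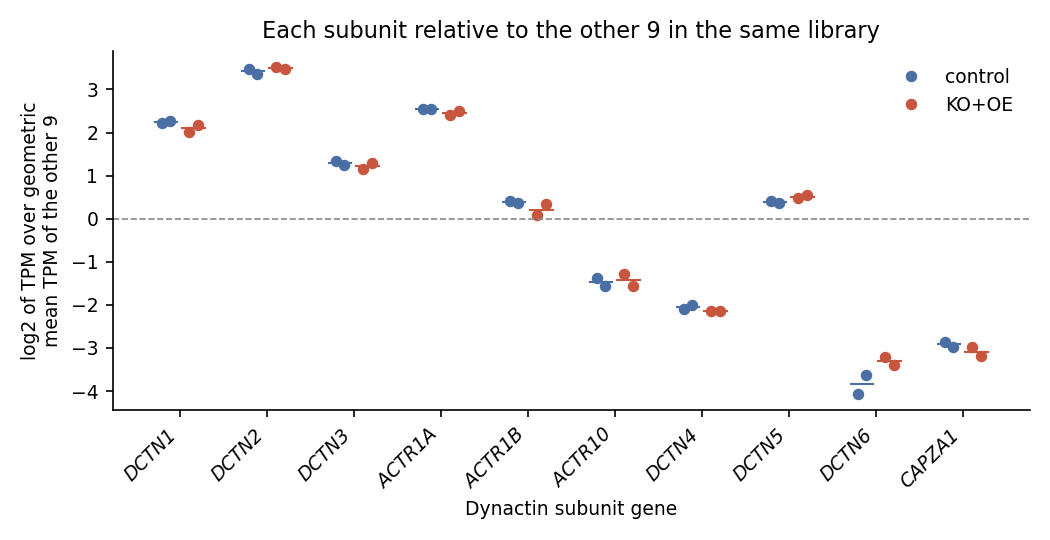
Log2 of the TPM of each dynactin subunit over the geometric mean TPM of the other 9 in the same library. Points are libraries, short lines the group means, and the dashed line marks equality. DCTN5 lies at 0.42 and 0.37 in control cells and at 0.47 and 0.55 in KO+OE cells. DCTN6 shows the widest step between the groups, from a mean of -3.85 to -3.31.

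Ratios of single pairs of subunits allow an exact test. With 2 against 2 libraries the exact two-sided permutation test cannot give a p below 0.333, so none of the 11 pairs compared could pass 0.05. Against ACTR1A, the subunit that varied least, DCTN5 stood at 0.266 and 0.259 in control cells and 0.299 and 0.298 in KO+OE cells (log2 difference 0.19, exact permutation p = 0.333). Against its pointed-end neighbour DCTN4 it stood at 4.79 and 4.41 in control cells and 5.11 and 5.37 in KO+OE cells, without overlap (log2 difference 0.19, exact permutation p = 0.333). Against DCTN6 it turned the other way, with 16.4 and 12.0 in control cells and 9.97 and 11.7 in KO+OE cells. Against ACTR10 the groups overlapped, at 3.05 and 3.35 and at 2.99 and 3.74.

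In the shoulder, the ratio of DCTN1 to DCTN2 was 0.459 and 0.507 in control cells and 0.392 and 0.447 in KO+OE cells. It was lower in KO+OE cells without overlap (log2 difference -0.20, exact permutation p = 0.333), and the ratio of DCTN2 to DCTN3 was higher, with 3.81 and 3.79 in control cells and 4.38 and 3.89 in KO+OE cells. In both ratios the first KO+OE library lay farthest out. This library also had the high KIF5A value, and a link between them was not tested. The ratio of ACTR1A to ACTR1B was 3.77 and 3.86 in control cells and 4.28 and 3.83 in KO+OE cells, with overlap. In all, 6 of the 11 ratios did not overlap between the groups, 3 of them higher in KO+OE cells. Of all genes tested, 14.5% were higher and 19.6% lower without overlap on their own values, and no such share was computed for ratios. The 11 ratios have subunits in common, so they are not independent results.

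The partners of dynactin were described by a list of 48 genes of dynein and kinesin transport, of which 39 averaged 1 TPM or more and entered the test. At an adjusted p under 0.05 limma called 0 of 39, and at an unadjusted p under 0.05 also 0 of 39 in either direction. Groups did not overlap for 5 of 39 that were higher, against 14.5% of all genes tested, and for 7 of 39 that were lower, against 19.6%. These 39 had a median log2 fold change of 0.010, near the -0.012 of all genes tested. With 20 genes above 0 and 19 below, the list showed no common direction.

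Of the dynein motor genes, 10 of 11 were tested and 7 of the 10 had a log2 fold change below 0 (6 with quantile normalization), with a median log2 fold change of -0.027. Of all 12319 genes tested, 6710 were below 0 and 5609 above. The highest level was that of DYNLL1, a light chain shared with other complexes, at 320.41 and 340.82 TPM in control cells and 327.58 and 327.46 TPM in KO+OE cells. The lowest was DYNLRB2, a roadblock light chain, which the table lists at 0 for the 2 control libraries and at 0.27 and 0.26 TPM for KO+OE cells. Of the dynein regulators, all 4 had a log2 fold change above 0 and the median was 0.107. The groups overlapped for PAFAH1B1, NDE1 and NDEL1, each of which was higher in the first KO+OE library than in the second. In this group NUDC, a chaperone of the LIS1 pathway, had the highest level with 159.04 and 153.76 TPM in control cells and 162.91 and 164.79 TPM in KO+OE cells, which did not overlap. NDEL1, which recruits LIS1 to dynein, had the lowest level, with 11.76 and 11.96 TPM in control cells and 12.66 and 11.32 TPM in KO+OE cells. The 4 regulators had adjusted p-values from 0.937 to 0.991.

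Cargo adaptors, the proteins that link dynein and dynactin to organelles, had 12 of 17 genes tested and a median of 0.001, with 6 on each side of 0. The highest was NUMA1, which anchors dynein and dynactin at the mitotic cell cortex, with 48.05 and 51.11 TPM in control cells and 51.43 and 50.17 TPM in KO+OE cells. The lowest was TRAK2, a mitochondrial adaptor, with 0.22 to 0.24 TPM. Among the microtubule plus-end partners, of which 3 of 4 were tested, MAPRE1 or EB1, which DCTN1 binds at growing ends, had 58.69 to 60.63 TPM and CLIP1 had 0.52 to 0.78 TPM.

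Of the kinesin genes, whose products move cargo the opposite way, 7 of 9 were tested and the median was 0.085. The highest was the light chain gene KLC2 at 26.31 and 25.66 TPM in control cells and 25.71 and 26.63 TPM in KO+OE cells, and the lowest KIFAP3 with 0.35 to 0.43 TPM. KIF5A had the largest difference of the list, 0.96 on the log2(TPM + 1) scale with an interval of -0.20 to 2.13, an unadjusted p of 0.0875 and an adjusted p of 0.931. Without the first KO+OE library its log2 fold change was 0.267. The other parts of dynactin outside the 10 subunits were CAPZA2 and CAPZB, given above, and ACTB, the actin monomer that sits in the filament, which had 7779.95 and 7673.29 TPM in control cells and 7738.77 and 7972.92 TPM in KO+OE cells.

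**Figure D5:**
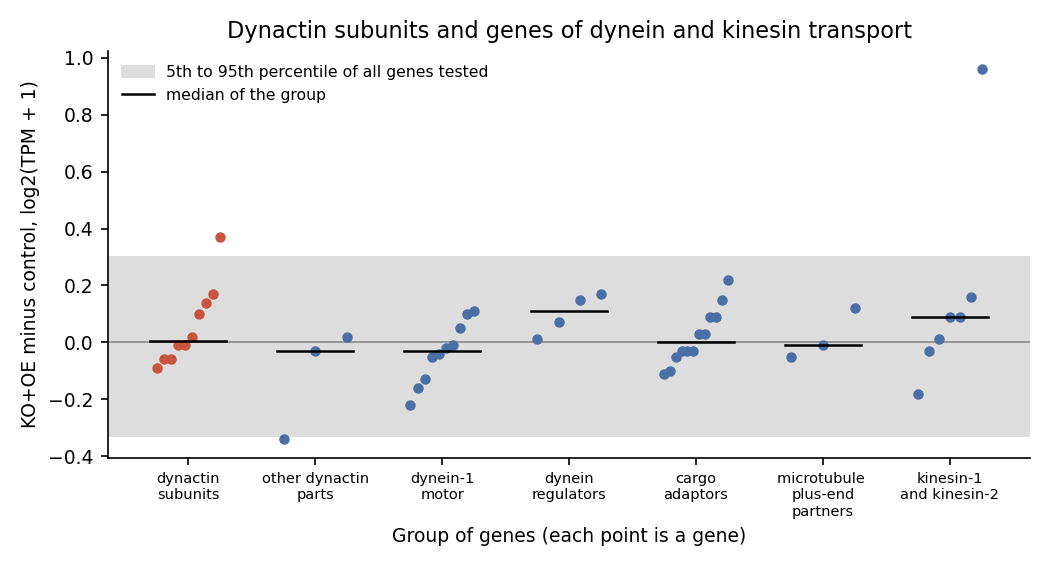
Difference between KO+OE and control cells on the log2(TPM + 1) scale for the 10 dynactin subunits (red) and 39 tested genes of dynein and kinesin transport in 6 groups (blue). Each point is a gene, black lines are group medians, and the grey band is the 5th to 95th percentile of all genes tested. The group medians lie between -0.028 and 0.107, and KIF5A stands apart at 0.96.

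RefSeq gave promoter windows for 8 of the 10 subunits, each of 300 bases from 250 before to 50 after a start, and the DCTN5 window holds the sequence printed above. The letters TGCGCA, which read the same on both strands and form part of the binding site of the factor NRF1, occurred in a window of 5 of the 8 (DCTN1, DCTN4, DCTN5, ACTR1A and ACTR1B). They occurred in 9.76% of the 27305 genes with a window and in 16% of the 8849 of those that were tested here. The CCAAT box, searched as CCAAT on both strands, was in 7 of 8 against 39.7% and 42.9%, with DCTN1 the exception. The ETS core CCGGAAG was in 2 of 8 (DCTN3 and DCTN5) against 12.2% and 21.9%, on both strands, and the YY1 core AAGATGG in 2 of 8 (DCTN4 and CAPZA1) against 7.11% and 9.79%. The TATA box, searched as TATAAA, was in 0 of 8 against 14% and 7.55%. Among the 8 subunits 3 have several windows, as many other genes do, and a gene was counted if any window held the letters. DCTN6 and ACTR10 had no window. A match describes the letters only.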

How the data were processed

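The file the authors deposited lists Ensembl genes with a column for each of the 4 libraries and names no unit. These deposited values were read as TPM, since they hold decimals and every column has about the same sum. Submitters' processing notes name HISAT2, featureCounts, Subread and the build hg38, without their roles or versions, and strand settings and the annotation are not given in the sources used here. It has 0 further columns with values of single samples. Libraries were grouped by their titles.

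The analysis used log2(TPM + 1), a scale that understates changes of low genes. Genes averaging 1 TPM or more over the libraries, 12319 in all, were compared with limma 3.58.1 (trended prior, group as the only term, two-sided) in R 4.3.3, with Benjamini-Hochberg adjustment over all of them and a threshold of 0.05. The step was tested on simulated data, with changes larger than those of the subunits and in genes above the level of several subunits. That test does not show how the step does with small changes or low genes. The study's own calls were made with a count model, which TPM values cannot enter. Subunit pairs were compared by an exact permutation test over libraries. The subunits and gene lists were chosen with earlier results of these data known. Named were the 10 subunits, NUDT21, CAPZA2, CAPZB, every listed partner gene with an unadjusted p under 0.05, and the highest and lowest gene of each group of partners. Of the genes that overlap a subunit, KIF5A, MBD6, LEPROTL1, ARMH4, MFSD13A and ST7L were added once their values were known. Positions, lengths and GC content were looked up by Ensembl identifier in GENCODE release 44, lifted to GRCh37, promoters from RefSeq on GRCh38.p14, and primers from the study's oligonucleotide table. Values were summarised with pandas 2.3.3, scipy 1.17.1 and numpy 2.4.6 under Python 3.11.15 and plotted with matplotlib 3.10.9.

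The alternatives were pseudocounts of 0.1 and 5, no filter, a mean of at least 5 TPM, median-ratio rescaling, quantile normalization, a block for the replicate number, limma without the trended prior, and the omission of single libraries, for which values are given without a test. Ratios were also taken with a pseudocount of 1, and over the median of the other subunits. Without counts, no counting interval was computed.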

Additional observations from a re-analysis of the deposited data

How the results depend on the processing

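No dynactin subunit and no partner gene passed an adjusted p of 0.05 under any of the 8 alternatives with a test. Adjusted p-values of DCTN5 ran from 0.865 to 0.940 and its log2 fold change from 0.149 to 0.193, leave-one-out values included. The count of subunits at an unadjusted p under 0.05 was 2 with median-ratio rescaling and with quantile normalization (DCTN5 and DCTN2) and 0 without the trended prior, where DCTN5 had an unadjusted p of 0.0588. For the partner genes that count was 2 with no filter, 1 without the trended prior and 1 with the replicate block. The whole-table count at an adjusted p under 0.05, 1 by default, was 0 with either pseudocount, no filter, a mean of at least 5 TPM, quantile normalization or the replicate block. The whole-table count at an unadjusted p under 0.05, 656 by default, was 1314 with no filter and 412 at a mean of at least 5 TPM, where more or fewer genes were tested.

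Same-numbered libraries did not deviate together (correlation -0.0485 over 12319 genes), so the numbers were not read as pairs. With the replicate block the count of subunits at an unadjusted p under 0.05 was 1, DCTN2 (0.0163) in place of DCTN5 (0.0550), and the median log2 fold change was 0.007.

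The log2 fold change changed sign for DCTN4 (0.004 and 0.006) and ACTR1A (0.007 and 0.010) with median-ratio rescaling and quantile normalization. Leaving out single libraries changed the sign of DCTN3 (-0.022 to 0.061), DCTN4 (-0.041 to 0.028), ACTR10 (-0.047 to 0.250), CAPZA1 (-0.156 to 0.039) and NUDT21 (-0.012 to 0.066). For DCTN3 the values below 0 were -0.022 and -0.006, and for DCTN4 those above 0 were 0.025 and 0.028. Without single libraries the median over the subunits ran from -0.011 to 0.034 and over the partner genes from -0.036 to 0.052. The rise of DCTN5 relative to the other subunits was 0.078 to 0.153 without single libraries. Over the median of the others in place of their geometric mean it was 0.271, the others' median by level being ACTR1B. With this median DCTN1 (0.026), DCTN3 (0.109), ACTR1A (0.083) and ACTR10 (-0.064) changed sign. In each library it was the lower of ACTR1B and DCTN5 for DCTN1, DCTN3 and ACTR1A, and the higher of them for ACTR10. Without single libraries the relative value ran from -0.135 to 0.010 for DCTN3 and from -0.101 to 0.185 for ACTR10, where -0.056 was also below 0. The cause of the other changes was not tested.

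The depth of the libraries is unknown, and with 2 libraries per group the fold changes of DCTN6, ACTR10 and CAPZA1 had 95% intervals that reach from below 1 to 1.25 or more.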
